A study of Mus musculus with 8 samples.

Results

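The comparison described here asks whether loss of Kdm6b did the same thing in XY as in XX mouse gonads at embryonic day 11.5. For every gene the effect in XX gonads (Kdm6b-null minus wild type, on the log2 scale) was subtracted from the effect in XY gonads, and this difference of differences is called the interaction below: it is positive where the null was relatively higher in XY and negative where it was relatively higher in XX. It was taken on log2(normalized count + 1) for the 15958 autosomal genes, of 48440 genes in all, whose mean was at least 10 normalized counts in the XX libraries and also in the XY libraries. Of the other autosomal genes, 27587 were under that minimum in both sexes, 438 passed it in XX alone and 237 in XY alone. Card14 was just inside, with means of 10.001 in XX and 11.8 in XY, and Gm26387 just outside, with 14.0 in XX and 9.998 in XY. Wild type and Kdm6b-null gonads of each sex made 4 groups, of 2 libraries each, with 2 pairs of gonads pooled in every library, from polyadenylated RNA. The null embryos carried a Kdm6b-null genotype, of which the labels give no further detail, no agent was applied to the tissue before RNA extraction, and the labels name neither the strain nor whether pools shared a litter. The growth protocol counts 4 samples where 8 are listed, which leaves unsettled whether both libraries of a group are separate pools, so the p-values measure the spread between these libraries, which may be technical.

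Kdm6b (JMJD3) removes methyl groups from lysine 27 of histone H3, a mark that Polycomb proteins place on silent genes. At this stage the gonad is bipotential: supporting cells of XY embryos transiently express Sry, which switches on Sox9 and the Sertoli cell programme of the testis, while in XX embryos WNT and R-spondin signals lead towards the ovary. Endothelial cells that migrate in from the neighbouring mesonephros, circulating blood cells, macrophages and primordial germ cells are part of the dissected tissue at this age.

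The XX and XY tables were scaled apart, so levels set side by side across the sexes are approximate. Each library held 19107103 to 19828638 counts on genes, and a value of 0 allows up to 3 counts, or 2.91 to 3.09 normalized counts, counting error alone. Wt1 and Gata4, transcription factors of the gonad, were measured in all 8 libraries, Amh of maturing Sertoli cells had 7.76 to 15.6 normalized counts, and Foxl2, a granulosa cell factor, was under the minimum. The labels name pre-granulosa or pre-Sertoli cells beside the tissue but describe no sorting. The pair of XX wild type libraries was the least alike (Pearson r = 0.970 across genes on the log2 scale, against 0.981 to 0.987 within the other groups). Relative to their own mean, replicate 1 lay 1.49 above and replicate 2 lay 1.49 below in the median of liver and yolk sac genes, and by 0.65 in the same way for germ cell genes, while erythroid genes lay 0.52 the other way. Every interaction rests on this pair. Kdm6b itself (chromosome 11, 69398508 to 69413675, GRCm38) had 2218 and 2796 (wild type) against 1249 and 1125 (null) normalized counts in XX gonads, with 3399 and 3181 against 1238 and 1037 in XY gonads. All null libraries lay below all wild type libraries of their sex, the effects were -1.54 in XY and -1.07 in XX, and the interaction was -0.47 (SE 0.19, limma unadjusted p = 0.0421, adjusted p = 0.583). Which exons the allele removes is not given here.

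Across the genome the effects in the 2 sexes were weakly correlated, and the XX effects were the larger. Null and wild type libraries did not overlap in either sex in 2637 of the 15958 genes. Of these, 1818 went the same way and 819 opposite ways. With 2 libraries against 2, such a lack of overlap often arises by chance, so it does not show an effect by itself. The effects of the 15958 genes correlated with r = 0.178, a description across genes that are not independent, from contrasts that share no library. The XX effect was the larger in size in 66.2% of genes, with a median size of 0.202 in XX and 0.104 in XY (log2). Null and wild type did not overlap in 49.6% of genes in XX and in 32.8% in XY. Within each sex limma called 9 genes in XX (0.0564% of those tested; adjusted p under 0.05; 2048 genes, or 12.8%, higher and 909, or 5.7%, lower at an unadjusted p under 0.05) and 0 in XY (0.0%; 281 genes, or 1.76%, higher and 370, or 2.32%, lower at an unadjusted p under 0.05).

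For the interaction itself limma called 0 of 15958 genes (0.0%; smallest adjusted p = 0.224). At an unadjusted p under 0.05 there were 404 positive genes (2.53%) and 952 negative genes (5.97%), 8.5% in all, where 798 genes are expected by chance. All 4 differences between a null and a wild type library in XY lay above all 4 in XX in 8.84% of genes and below all 4 in 15.6%, and such genes are called separated below. Negative genes were the more numerous under each scaling tried: 29.8% of the unadjusted calls were positive as measured, 31.6% with median-centred effects (419 positive, 905 negative) and 40.3% after quantile normalization within each table (447 positive, 663 negative). A difference of the fold changes in the authors' deposited tables, with their standard errors combined, gave 34 genes with an adjusted p under 0.05, 15 positive (0.094%) and 19 negative (0.119%). All 34 had the same direction, an unadjusted p under 0.05 and separated effects by limma, which used the same libraries. Without XX wild type replicate 2 limma called 37 genes, 5 of them among those 34, and it called 0 without any other single library. The negative genes leaned on the XX side: the XX effect was the larger in 836 of the 952, with a median of 0.43 in XX and -0.03 in XY. In the positive genes the median effects were -0.57 in XX and 0.30 in XY, and the signs were opposite in 343 of the 404. Negative genes were well expressed and long, with a median of 1457 normalized counts and a median annotated span of 44722.5 bases, against 418 and 20537 over all genes tested. The positive genes had a median of 144 normalized counts and a span of 22314 bases. Because the genes of each direction were chosen by the test, these medians are descriptions.

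**Figure D1:**
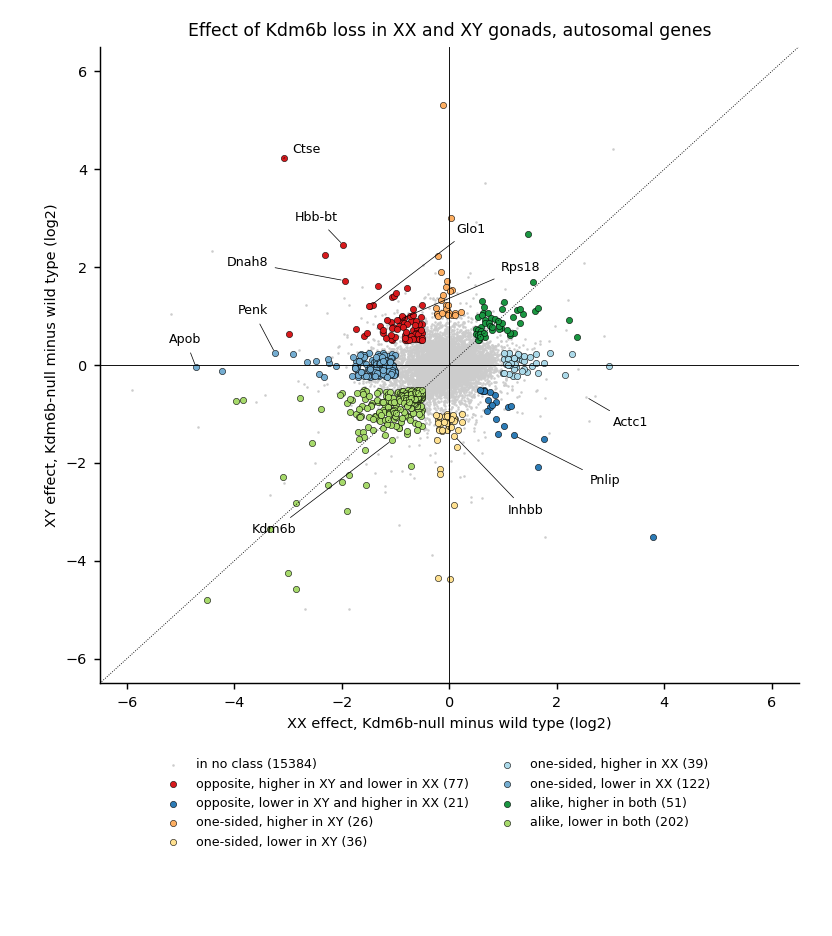
Each point is 1 of 15958 autosomal genes, placed by its XX effect (horizontal axis) and XY effect (vertical axis), both Kdm6b-null minus wild type on the log2(normalized count + 1) scale. Coloured points belong to the classes named in the key with their gene numbers, the dotted line marks equal effects, and the 77 genes higher in XY and lower in XX fill the upper left.

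Genes were sorted into classes by their effects. Opposite genes had an effect of at least 0.5 in both sexes, with opposite signs and no overlap of null and wild type libraries in either. One-sided genes had an effect of at least 1 without overlap in 1 sex and of at most 0.25 in the other, and alike genes met the terms of the first class with equal signs. There were 98 opposite genes (0.614% of those tested), of which 77 (0.483%) were higher in XY Kdm6b-null and lower in XX Kdm6b-null and 21 (0.132%) the reverse. One-sided genes numbered 26 higher (0.163%) and 36 lower (0.226%) in XY, and 39 higher (0.244%) and 122 lower (0.765%) in XX. In the same order, only 4, 11, 13 and 43 of them had a limma unadjusted interaction p under 0.05. Separated effects were found in 15, 17, 25 and 76, so a one-sided gene need not differ between the sexes by the interaction. The alike genes were 51 higher (0.32%) and 202 lower (1.27%) in both, 1.59% of genes together, so that alike genes were more numerous than opposite ones. An unadjusted interaction p under 0.05 was found in 68 of the 77 and 19 of the 21 opposite genes, and all were separated, which follows from how they were chosen. A group mean of 50 normalized counts was reached in 32 of the 77 and 14 of the 21, and 18 and 5 were predicted genes or pseudogenes.

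Glo1, which encodes the glyoxalase that detoxifies methylglyoxal, showed the clearest opposite effect. It had 3199.6 and 4692 (wild type) against 1352 and 1432 (null) normalized counts in XX gonads, with 1487 and 1995 against 4147 and 3797 in XY gonads. In XX the null had less than the wild type in every library, in XY it had more in every library, and in neither sex did the ranges overlap. Its effects were -1.48 in XX and 1.20 in XY, and the interaction was 2.68 (SE 0.27, limma unadjusted p = 1.35e-05, adjusted p = 0.224), the smallest adjusted p of all genes. With each library left out in turn the interaction was 2.40 to 2.96. In the authors' deposited tables the log2 fold changes of Glo1 were -1.50 in XX and 1.19 in XY. Glo1 (ENSMUSG00000024026.12) lies on the minus strand of chromosome 17 at 30592866 to 30612659 (GRCm38).

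Dnah8, an axonemal dynein heavy chain whose gene starts next to Glo1 (chromosome 17, 30624354 to 30875264), showed the same pattern. It had 147 and 168 (wild type) against 39.9 and 40.4 (null) normalized counts in XX gonads, with 39.6 and 80.7 against 238 and 150.3 in XY gonads, an interaction of 3.67 (SE 0.51, limma adjusted p = 0.313). Rps18, a protein of the small ribosomal subunit on the same chromosome (33951999 to 33956001), had 13985 and 14174 (wild type) against 9161 and 5917 (null) normalized counts in XX gonads, with 5918 and 5956 against 10605 and 11928 in XY gonads. XX wild type and XY Kdm6b-null were the high groups in all of these genes, and XX Kdm6b-null and XY wild type the low ones. The interaction of Rps18 was 1.86 (SE 0.26, limma adjusted p = 0.313), and reads of its processed copies elsewhere in the genome may not be fully separated. Mrps10, of the mitochondrial ribosome and also on chromosome 17 (47368887 to 47381417), had smaller effects in the same pattern (-0.49 in XX, 0.35 in XY). Its interaction was 0.84 (limma adjusted p = 0.320).

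Chromosome 17 held 12 of the 98 opposite genes, or 12.2% of them, while it holds 4.78% of the genes tested. That is 1.57% of its own 762 genes, against 0.614% over all autosomes. These 12 genes were picked out after their values were seen. Of its genes 12.1% had an unadjusted interaction p under 0.05, against 8.5% over all autosomes and 6.49 to 10.4% on each other chromosome. Of the 12 opposite genes 11 were higher in XY Kdm6b-null and 1, BC051142, was lower, with an interaction of -1.63. Besides Glo1, Dnah8 and Rps18 they included Trem2, a receptor of myeloid cells, with an interaction of 2.44, Trim10, a gene of erythroid cells (1.96), the class I histocompatibility gene H2-T24 (1.80) and the methyltransferase gene Gnmt (1.73). Trem2 had 61.1 and 58.7 (wild type) against 38.9 and 21.2 (null) normalized counts in XX gonads, with 16.8 and 32.9 against 63.4 and 64.8 in XY gonads. The starts of the 12 genes run from Glo1 at 30592866 to Trem2 at 48346401. With each library left out in turn, 8 to 11 of the 11 positive genes kept an unadjusted p under 0.05 and all 12 kept their direction. The share of chromosome 17 genes at that p ran from 6.43 to 23.4% over the same settings, and that of all autosomal genes from 4.004 to 21.1%, the upper end of both without XX wild type replicate 2.

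**Figure D2:**
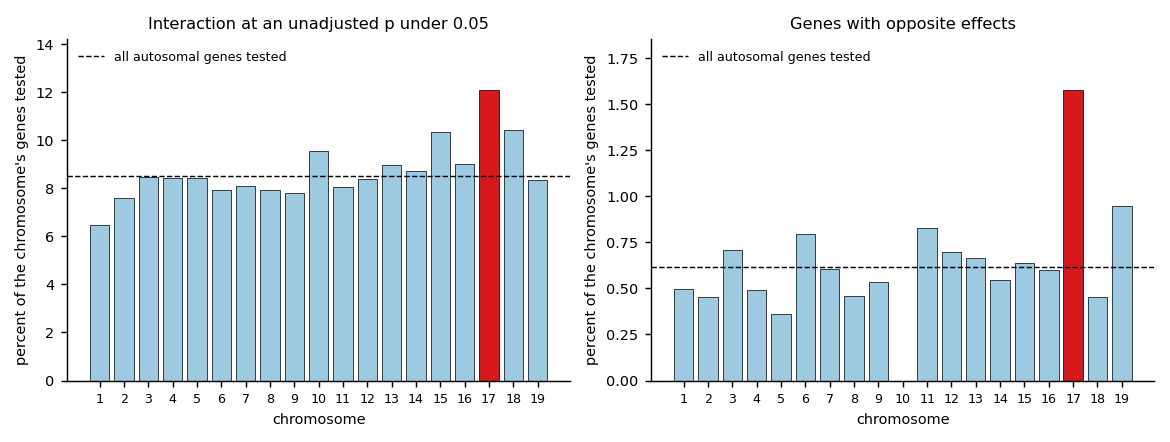
Bars give, for each autosome, the percent of its genes tested that had an unadjusted interaction p under 0.05 (left) and that had opposite effects (right), with chromosome 17 in red and the share over all autosomal genes as a dashed line. Chromosome 17 has the tallest bar in both panels, at 12.1% and 1.57%.

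Among 16 macrophage markers 0 were opposite genes, and among 18 measured erythroid markers 1 was, against 0.614% of all genes, counts too small to compare. That gene, Hbb-bt, an adult beta globin, had 2162 and 2670.4 (wild type) against 953 and 392 (null) normalized counts in XX gonads, with 193 and 371 against 1289.5 and 1667 in XY gonads, and its interaction was 4.42 (SE 0.61, limma adjusted p = 0.313). Its near-identical copy Hbb-bs may share its reads: in XY, Hbb-bs had 623 and 411 (wild type) against 449 and 643 (null), which overlap. Slfn14, a ribosome-associated endonuclease of the platelet and erythroid lineage, had 71.8 and 80.9 (wild type) against 37.9 and 34.3 (null) normalized counts in XX gonads, with 16.8 and 12.96 against 34.1 and 47.3 in XY gonads. The ranges did not overlap in either sex, and the interaction was 2.44 (SE 0.41, limma adjusted p = 0.512). Kel, the Kell blood group protein, had an interaction of 1.75, and was named after its values were seen. The summed level of the erythroid markers was lower in both XX Kdm6b-null libraries and higher than both XY wild type ones only in XY Kdm6b-null replicate 2: in XX it was 197116 and 256618 (wild type) against 126949 and 119503 (null), and in XY it was 64543 and 108342 against 73773 and 220013. The part of red cells in these results was not tested, and in pooled tissue fewer cells of a type and less RNA per cell cannot be told apart.

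Ctse, the intracellular protease cathepsin E, had the largest positive interaction of the named genes. It had 216 and 16.2 (wild type) against 11.96 and 3.03 (null) normalized counts in XX gonads, with 5.94 and 5.98 against 88.8 and 187 in XY gonads. XX wild type replicate 1 alone was far above the null in XX, and without it the interaction was 5.47 in place of 7.30. Fgf1, a fibroblast growth factor, had 122 and 53.6 (wild type) against 40.9 and 21.2 (null) normalized counts in XX gonads, with 26.7 and 20.9 against 45.8 and 71.02 in XY gonads, and an interaction of 2.66 (limma adjusted p = 0.569).

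The opposite genes of the other direction were fewer. Pnlip, pancreatic lipase, had 22.3 and 43.5 (wild type) against 72.7 and 73.7 (null) normalized counts in XX gonads, with 112 and 129 against 37.1 and 51.5 in XY gonads. Both XX Kdm6b-null libraries lay above both wild type ones, both XY Kdm6b-null libraries below, and the interaction was -2.64 (SE 0.48, limma adjusted p = 0.569). Hist1h4i, a histone H4 gene, had 168 and 203 (wild type) against 331 and 349 (null) normalized counts in XX gonads, with 307 and 275 against 192 and 95.7 in XY gonads, and an interaction of -1.97 (SE 0.42, limma adjusted p = 0.569). The H2A gene Hist1h2ag beside it on chromosome 13 went the same way (0.84 in XX, -0.60 in XY), and was named for its position after its values were seen. Histone genes of this cluster are close copies of each other, and most of their transcripts carry no poly(A) tail. Cbln1, a secreted synaptic organiser, had an interaction of -1.95, the muscle ring finger gene Trim55 -1.99 and the relaxin family receptor gene Rxfp3 -1.62 (limma adjusted p = 0.569, 0.585 and 0.583). In XY, Aox4, an aldehyde oxidase, had 42.5 and 47.9 (wild type) against 38.04 and 2.06 (null) normalized counts, where replicate 2 made most of the effect: its interaction of -3.73 was -1.89 without that library.

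**Figure D3:**
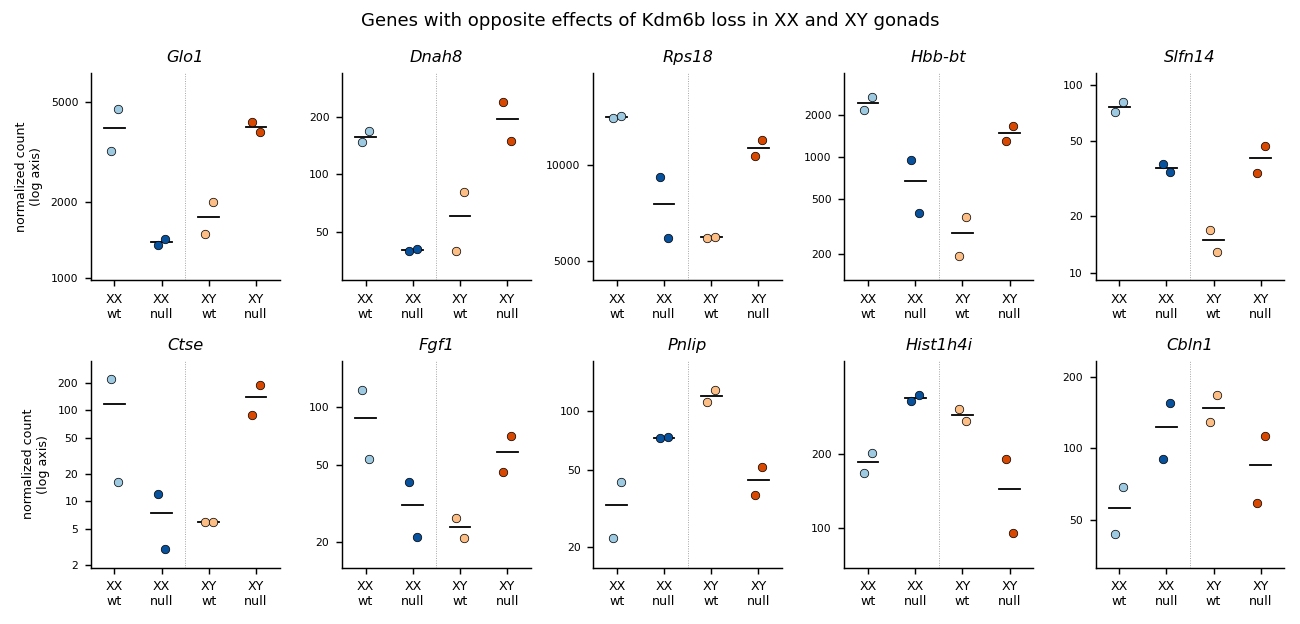
Normalized counts (log axis) of 10 opposite genes in the 8 libraries, 1 point per library, with a bar at the mean of each group of 2 (wt, wild type; null, Kdm6b-null). In the first 7 panels XX wild type and XY Kdm6b-null are the higher groups of their sex, and in Pnlip, Hist1h4i and Cbln1 they are the lower ones.

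The 250 bases upstream of the RefSeq start are shown for an opposite gene of each direction, as the part of each gene that precedes its transcript. The sequences are from RefSeq (GRCm38.p6), Glo1 at chr17:30612660-30612909 on the minus strand and Pnlip at chr19:58670115-58670364 on the plus strand, written 5′ to 3′ in the direction of transcription. Capitals mark matches on either strand to 4 motifs. GGAAG, the core of sites for ETS factors, was found in 63.6% of 27018 upstream stretches of this length. AGATAA, a form of the GATA factor site, was found in 10.3% of them. The CCAAT box, searched by those letters, was found in 34.5%. TATAAA, a form of the TATA box, was found in 13.0%.
Glo1: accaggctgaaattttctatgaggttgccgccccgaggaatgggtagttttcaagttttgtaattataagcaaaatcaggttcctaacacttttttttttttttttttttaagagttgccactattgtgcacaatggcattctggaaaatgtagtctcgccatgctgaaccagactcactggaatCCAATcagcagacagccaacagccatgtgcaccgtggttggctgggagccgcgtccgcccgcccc
Pnlip: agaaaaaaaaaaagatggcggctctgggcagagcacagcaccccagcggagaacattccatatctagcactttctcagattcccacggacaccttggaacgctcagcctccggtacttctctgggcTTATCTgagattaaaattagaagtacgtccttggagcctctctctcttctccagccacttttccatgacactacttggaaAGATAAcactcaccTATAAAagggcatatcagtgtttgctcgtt
Glo1 held 1 CCAAT match, which begins 65 bases before the start. Pnlip held 2 AGATAA matches, at 124 and 44 bases before it, and 1 TATAAA match at 30. No motif overlapped another, and a match in this window is a description, not a site.

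Among one-sided genes, those lower in XX Kdm6b-null were the most frequent. Penk, which encodes the opioid precursor proenkephalin, had 224 and 246 (wild type) against 21.9 and 26.3 (null) normalized counts in XX gonads, with 29.7 and 17.9 against 29.3 and 25.7 in XY gonads. The XX wild type libraries stood alone, and the other 6 lay together at 17.9 to 29.7. Its XX effect was -3.24, one of the 9 that limma called within XX, and the interaction was 3.48 (SE 0.42, limma adjusted p = 0.313). Gna14, a G protein alpha subunit, had 162 and 211 (wild type) against 57.8 and 50.5 (null) normalized counts in XX gonads, with 76.2 and 72.8 against 73.2 and 69.99 in XY gonads, and an interaction of 1.70 (SE 0.30, limma adjusted p = 0.569). Habp2, a hyaluronan-binding serine protease, and Ugt2b34, a glucuronosyltransferase, had interactions of 3.14 and 4.10. The wild type range of Ugt2b34 was wide, at 40.7 and 124. Tbx4, a limb and lung transcription factor, had 56.3 and 427 in XX wild type, so that replicate 2 alone was high, and 2.71 as its interaction. Apob, the apolipoprotein B of liver and yolk sac, had 1070.1 and 83.96 (wild type) against 10.96 and 10.1 (null) normalized counts in XX gonads, with 10.9 and 11.96 against 16.6 and 7.21 in XY gonads, where XX wild type replicate 1 alone was above 100. Short of the one-sided terms, Socs2, a suppressor of cytokine signalling, and Celf2, an RNA-binding splicing regulator, also had lower values in XX Kdm6b-null, with effects of -1.10 and -0.94 against 0.29 and 0.02 in XY (limma adjusted p of the interaction = 0.388 for both).

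One-sided genes higher in XX Kdm6b-null included Igdcc3, an immunoglobulin family receptor, and Draxin, an axon guidance protein (-1.81). Igdcc3 had 403 and 1209.8 (wild type) against 2509 and 2582 (null) normalized counts in XX gonads, with 1739 and 1898 against 1824 and 2540.3 in XY gonads, an interaction of -1.62 (limma adjusted p = 0.579). Both were lowest in XX wild type replicate 1, and their other wild type library was between that and the null. Nhlh1, a neuronal basic helix-loop-helix factor, and Myh6, a cardiac myosin, had interactions of -2.05 and -1.33. Clca1 met the terms with an interaction of -2.35, but its XY libraries ran from 1.00 to 474, and its interaction changed sign, to 1.59, when XY wild type replicate 1 was left out, and to 1.36 when XY Kdm6b-null replicate 2 was. Actc1, the cardiac actin, is not in a class because its XY libraries overlapped: it had 209 and 355 (wild type) against 1395 and 1796 (null) normalized counts in XX gonads, with 653 and 1743 against 843 and 549.6 in XY gonads, and an interaction of -3.18 (SE 0.64, limma adjusted p = 0.569).

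One-sided genes in XY were fewer. Amd2, a copy of the S-adenosylmethionine decarboxylase gene, had 62.1 and 45.5 (wild type) against 78.7 and 26.3 (null) normalized counts in XX gonads, with 9.89 and 8.97 against 56.6 and 40.1 in XY gonads, and an interaction of 2.44 (limma adjusted p = 0.569). Phf24, a PHD finger protein gene, had 36.6 and 43.9 (wild type) against 82.9 and 95.7 (null) in XY (1.18). Msantd1, Eps8l1 and the class I histocompatibility gene H2-T22 of chromosome 17 had interactions of 2.07, 1.26 and 1.76, each with XY wild type libraries far apart. Lower in XY alone were Inhbb, described with the testis genes, Syt15 (-1.95), Adm, the vasodilator adrenomedullin (-1.11), and Egfl8 of chromosome 17, a secreted EGF-like protein (-1.04). Inhbb, Syt15 and Egfl8 were separated and Adm was not.

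Endothelial genes had the largest share of members at an unadjusted interaction p under 0.05 of the lists, at 66.7%. All 15 had a negative interaction, 10 of 15 at an unadjusted p under 0.05, against 5.97% of all genes negative at that p (8.5% in either direction), and 11 were separated, against 15.6% of all genes. The median interaction was -0.66, against -0.02 over all genes, made of 0.42 in XX and -0.22 in XY. All 15 had positive XX effects and 13 of 15 had negative XY effects, but null and wild type did not overlap in 14 genes in XX, all higher in the null, and in 4 in XY, all lower, against 27.9% of all genes higher in XX and 16.1% lower in XY. With each library left out in turn the median was -0.82 to -0.58, 14 or 15 of 15 stayed negative, and 7 to 12 had an unadjusted p under 0.05. Limma adjusted p-values of the interaction were above 0.05 in every member.

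Plvap, which forms the diaphragms over endothelial openings, had 944 and 1204 (wild type) against 1980.0 and 2090.2 (null) normalized counts in XX gonads, with 1634 and 2081 against 1657 and 1716 in XY gonads. Its XX wild type libraries stood below all other 6, and the interaction was -1.06 (SE 0.21, limma adjusted p = 0.569). Tek, the angiopoietin receptor TIE2, had 832 and 894 (wild type) against 1181 and 1252 (null) normalized counts in XX gonads, with 1063 and 1602 against 996 and 875 in XY gonads, lower in XX wild type than in XX Kdm6b-null and higher in XY wild type than in XY Kdm6b-null (-0.98, limma adjusted p = 0.569). The transcription factors Sox18 and Erg had the same order of groups in XX. Sox18 had 231 and 276 (wild type) against 406 and 396 (null) normalized counts in XX gonads, with 382 and 419.7 against 373 and 344 in XY gonads, and Erg had 359.9 and 424 (wild type) against 518 and 514 (null) normalized counts in XX gonads, with 486 and 545 against 422 and 435 in XY gonads. Their interactions were -0.83 and -0.66. Cdh5, the cadherin of endothelial junctions (-1.02), the receptors Tie1 (-0.96), Kdr (-0.51) and Flt1 (-0.91), Cldn5 of tight junctions (-0.64) and Eng, a TGF-beta co-receptor (-0.58), made up the 10 and, like the next pair, were named after their values were seen to complete the list. The smallest values were those of Robo4 (-0.13) and Emcn (-0.24). The summed level in XX was 14569.96 and 16065 (wild type) against 21928 and 21412 (null), and in XY 18769 and 24826 against 19756 and 18159, on scales set apart for the 2 sexes.

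The upstream bases of Tek (chr4:94739039-94739288, plus strand) and Cldn5 (chr16:18776597-18776846, plus strand) are shown as those of 2 endothelial genes whose values went together, in the same form as above.
Tek: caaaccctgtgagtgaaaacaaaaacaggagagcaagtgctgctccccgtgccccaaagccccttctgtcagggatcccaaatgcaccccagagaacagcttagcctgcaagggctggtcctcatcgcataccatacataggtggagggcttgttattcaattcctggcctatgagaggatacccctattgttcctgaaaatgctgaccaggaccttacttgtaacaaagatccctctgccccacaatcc
Cldn5: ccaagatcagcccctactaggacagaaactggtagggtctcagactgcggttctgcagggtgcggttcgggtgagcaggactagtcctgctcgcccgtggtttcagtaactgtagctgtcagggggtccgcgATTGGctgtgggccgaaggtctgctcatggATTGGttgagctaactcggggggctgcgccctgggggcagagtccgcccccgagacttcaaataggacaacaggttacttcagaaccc
Tek held none of the motifs in this window, and Cldn5 held 2 CCAAT matches, on the reverse strand at 118 and 88 bases before the start.

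Genes of the testis pathway and of pre-Sertoli cells had mostly negative interactions, and their larger effects were in XY. Of 24 listed genes 19 were measured, with a median interaction of -0.43 (median effect -0.42 in XY and 0.03 in XX), 14 negative and 5 positive. At an unadjusted p under 0.05, 5 of 19 (26.3%) were negative and 0 positive, against 5.97% and 2.53% of all genes, and with each library left out in turn 4 to 6 were negative, the median being -0.67 to -0.18. Inhbb, the beta subunit of activin B and inhibin B, had 198 and 144 (wild type) against 173 and 186 (null) normalized counts in XX gonads, with 555 and 611 against 167 and 274 in XY gonads. Only the XY wild type libraries were high, and the effect of -1.44 in XY stood beside 0.09 in XX, with an interaction of -1.53 (SE 0.35, limma unadjusted p = 0.00274, adjusted p = 0.569). Cbln4, a secreted marker of early Sertoli cells, had 18.4 and 25.3 (wild type) against 27.9 and 24.2 (null) normalized counts in XX gonads, with 88.04 and 111 against 40.97 and 25.7 in XY gonads, again high in XY wild type alone (-1.83). Cyp26b1, which degrades retinoic acid, had 455 and 516 (wild type) against 599.9 and 539 (null) normalized counts in XX gonads, with 1164 and 882 against 649.6 and 671 in XY gonads, and an interaction of -0.85 (SE 0.20, limma adjusted p = 0.569).

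Cst9, a cystatin of early Sertoli cells, was the list's only opposite gene (-2.30), at 4.85 to 33.6 normalized counts, and Dhh, the hedgehog ligand of Sertoli cells, was the fifth member (-0.96). Dmrt1, a DM-domain factor of the male pathway, had 42.7 and 36.4 (wild type) against 41.9 and 25.3 (null) normalized counts in XX gonads, with 126 and 137 against 53.6 and 59.7 in XY gonads. It was lower in XY Kdm6b-null without overlap, its XX groups overlapped, and the interaction of -0.93 missed the unadjusted threshold (limma unadjusted p = 0.0524, adjusted p = 0.588). Sox9, the target of SRY, had 515 and 769 (wild type) against 923 and 828 (null) normalized counts in XX gonads, with 910.1 and 767 against 1021 and 495 in XY gonads, with an interaction of -0.71 (SE 0.46, limma unadjusted p = 0.162). The XY Kdm6b-null libraries of Sox9 straddled the wild type ones, and the interaction ran from -1.23 to -0.18 with each of the 8 libraries left out. Amh, the Müllerian duct hormone, had -0.15 and Fgf9, a secreted factor upholding Sox9 expression, had 1.10. Fgf9 had 138 and 202 (wild type) against 68.8 and 85.9 (null) normalized counts in XX gonads, with 112 and 57.8 against 78.03 and 82.3 in XY gonads: it was lower in XX Kdm6b-null alone, which put it among the one-sided genes, and went against the direction of the list. The interactions of Amh and Fgf9 had limma adjusted p = 0.959 and 0.587.

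The upstream bases of Inhbb (chr1:119422249-119422498, minus strand) and Cbln4 (chr2:172043467-172043716, minus strand) are shown for list members with high values in XY wild type alone.
Inhbb: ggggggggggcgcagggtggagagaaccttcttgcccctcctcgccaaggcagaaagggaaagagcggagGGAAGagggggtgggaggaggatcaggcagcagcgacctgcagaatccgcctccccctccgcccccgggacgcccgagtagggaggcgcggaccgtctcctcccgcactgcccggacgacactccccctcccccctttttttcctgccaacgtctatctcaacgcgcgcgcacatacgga
Cbln4: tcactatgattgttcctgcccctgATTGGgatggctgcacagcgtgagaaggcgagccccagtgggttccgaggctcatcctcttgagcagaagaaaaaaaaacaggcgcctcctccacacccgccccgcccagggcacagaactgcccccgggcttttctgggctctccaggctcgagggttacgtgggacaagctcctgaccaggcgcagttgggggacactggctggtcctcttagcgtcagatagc
Inhbb held 1 GGAAG match at 180 bases before the start, and Cbln4 held 1 CCAAT match, on the reverse strand at 226. Inhbb held 21 CpG pairs in the window and Cbln4 held 11.

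Genes of the bipotential gonad and genes known to regulate Sry had a median interaction of -0.33, with 18 of 22 negative. At an unadjusted p under 0.05, 8 were negative and 1, Zbtb20 (0.44), was positive, 40.9% of the list against 8.5% of all genes. In the negative direction 12 of 22 were separated, against 15.6% of all genes. The median was -0.40 to -0.25 with each library left out, and 4 to 9 members were negative at that p. Some of the 8 differed through XY and others through XX. Lhx9, a LIM homeobox factor needed for gonad formation, had 1381 and 918 (wild type) against 1101 and 1167 (null) normalized counts in XX gonads, with 1699 and 2228 against 929.6 and 1086 in XY gonads, high in XY wild type and at 918 to 1381 in the other groups, with an interaction of -0.96 (SE 0.29, limma adjusted p = 0.569). Nr5a1, the nuclear receptor SF1 of gonad and adrenal, had 610.2 and 313 (wild type) against 597 and 567 (null) normalized counts in XX gonads, with 1114 and 1257 against 479.9 and 882 in XY gonads, and -1.27 (SE 0.49). Its XX wild type replicate 2 was low, and leaving out XX wild type replicate 1 or 2 gave -1.76 or -0.79. Gata4 had effects of -0.68 in XY and 0.33 in XX, and an interaction of -1.01 (limma adjusted p = 0.574).

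In Map3k4, a kinase upstream of p38 that acts on Sry, the difference lay in XX: it had 1426 and 1647 (wild type) against 2238 and 2328 (null) normalized counts in XX gonads, with 2043 and 1999.8 against 2026 and 2176 in XY gonads, and the XX wild type libraries stood below all others. Its interaction was -0.52 (SE 0.13, limma adjusted p = 0.569). The coactivator gene Cited2 (-0.50), Map3k1 (-0.37) and the histone H3 lysine 9 methyltransferase gene Ehmt2 (-0.35) showed the same order of groups, with XY effects of 0.09, 0.05 and -0.01. Emx2, a homeobox gene of the coelomic epithelium, was the eighth (-0.81).

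Ovary pathway genes had no common direction, with a median of -0.09, 7 positive and 11 negative of 18 measured. At an unadjusted p under 0.05 there was 1 in each direction, 11.1% of the list against 8.5% of all genes. The negative one was Lgr4, an R-spondin receptor, which had 1872 and 2120.2 (wild type) against 3655 and 3573 (null) normalized counts in XX gonads, with 3562 and 4013 against 3413 and 3572 in XY gonads. XX wild type stood apart from the other 3 groups, the XX effect of 0.86 was among the 9 called by limma, and the interaction was -0.97 (SE 0.14, limma adjusted p = 0.313; -1.06 to -0.88 with each library left out). The positive one was Sp5, a direct target of WNT signalling, which had 78.6 and 68.8 (wild type) against 27.9 and 23.2 (null) normalized counts in XX gonads, with 48.5 and 48.8 against 31.2 and 49.4 in XY gonads (1.19). The homeobox gene Irx3 had effects of -1.45 in XX and -0.38 in XY, and the WNT receptor gene Fzd1 an interaction of -0.51, neither under the unadjusted threshold. Wnt4, the ovary-promoting signal, had 1411 and 1109.6 (wild type) against 1430.0 and 1875 (null) normalized counts in XX gonads, with 2217 and 2523 against 1425 and 3089 in XY gonads, with 1 XY Kdm6b-null library above and 1 below the wild type, and an interaction of -0.56 (SE 0.46, limma adjusted p = 0.755). Fst, the activin antagonist follistatin, had 0.13 (SE 0.52).

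**Figure D4:**
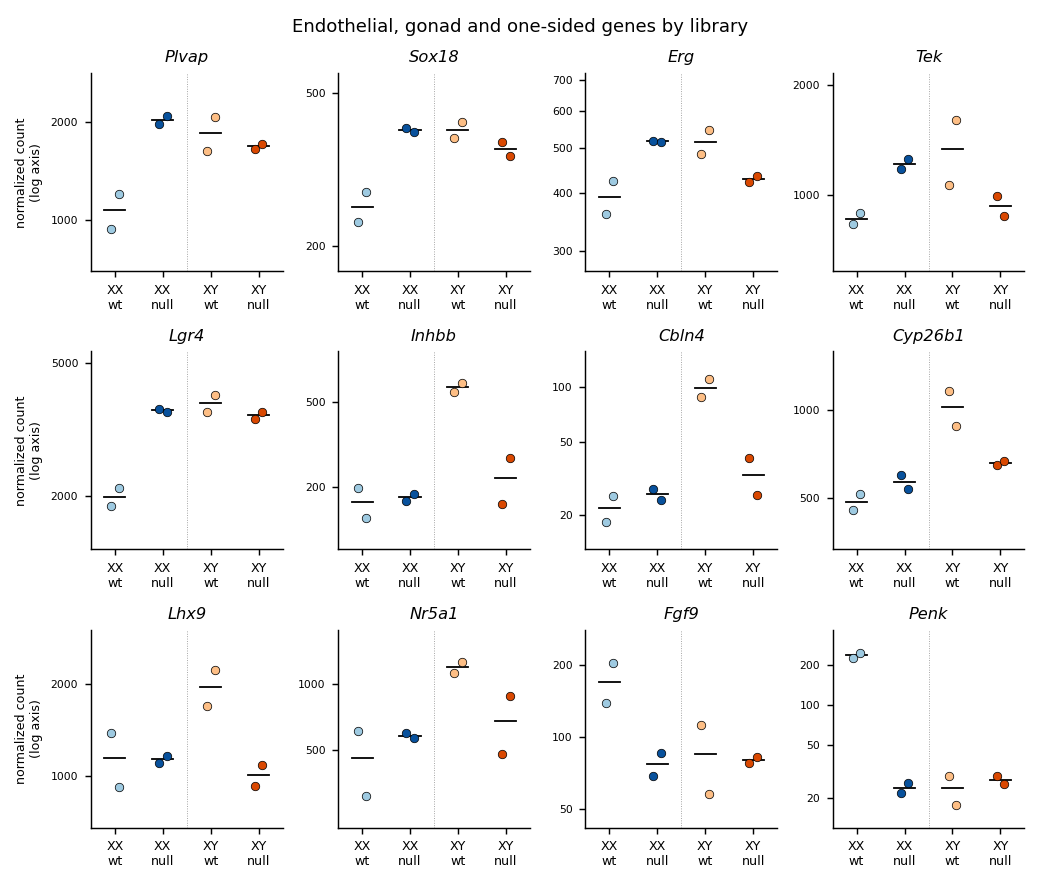
Normalized counts (log axis) in the 8 libraries, 1 point per library, with a bar at the mean of each group of 2 (wt, wild type; null, Kdm6b-null). XX wild type is the group apart in Plvap, Sox18, Lgr4 and Penk, and XY wild type is the group apart in Inhbb, Cbln4, Cyp26b1 and Lhx9.

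Blood cell lists had positive interactions. All 18 measured erythroid genes had a positive interaction, with a median of 0.83 (0.41 in XY, -0.51 in XX). Only 4 of 18 had an unadjusted p under 0.05 (22.2%, against 8.5% of all genes). These were Hbb-bt, the alpha globin Hba-a1 (2.26), Hbb-bs (2.56) and the embryonic beta globin Hbb-y (1.81). Hbb-y had 114162 and 118333 (wild type) against 54605 and 53299 (null) normalized counts in XX gonads, with 28298 and 43502 against 34426 and 94610.4 in XY gonads. The XX groups were apart, while XY Kdm6b-null replicate 2 made the XY side: the median was 0.19 without it. It was 0.25 and 1.503 when XX wild type replicate 2 or 1 was left out, and 1.58 when XY Kdm6b-null replicate 1 was. Only 11 of 18 were positive without XY Kdm6b-null replicate 2 and 14 without XX wild type replicate 2, and 3 to 9 had an unadjusted p under 0.05 with each library left out in turn. Hba-a1 has a near-identical copy, Hba-a2, which had 207 and 205 (wild type) against 7.97 and 90.9 (null) normalized counts in XX gonads, with 39.6 and 3.99 against 0.00 and 3.09 in XY gonads, and an interaction of 0.03. Macrophage genes had a median of 0.41, 14 of 16 positive and 3 at an unadjusted p under 0.05 (18.75%, against 8.5% of all genes). Csf1r, the receptor for macrophage growth factor, had 680.1 and 564 (wild type) against 691 and 526 (null) normalized counts in XX gonads, with 479 and 499 against 816 and 809 in XY gonads, higher in XY Kdm6b-null and overlapping in XX (0.77, SE 0.21, limma adjusted p = 0.569). C1qb, a complement chain (0.79), and the signalling adaptor Tyrobp (0.99) were the others. With each library left out the median was 0.24 to 0.69, and 12 to 16 members were positive.

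Among germ cell genes the median was 0.53, with 16 of 19 positive. At an unadjusted p under 0.05 there were 0, against 8.5% of all genes. Leaving out XX wild type replicate 1 or 2 gave a median of -0.20 or 1.31. Without replicate 1 only 9 were positive and 10 negative, and without replicate 2, 16 were positive and 3 negative. Genes for secreted proteins of liver and yolk sac had a median of 3.13 in the 6 of 16 measured. Of the 6, 3 had an unadjusted p under 0.05, against 8.5% of all genes. Ttr, transthyretin, had 900.3 and 104 (wild type) against 6.98 and 8.08 (null) normalized counts in XX gonads, with 10.9 and 1.00 against 32.2 and 2.06 in XY gonads, and Rbp4, the retinol-binding protein, had 205 and 123 (wild type) against 9.96 and 15.2 (null) normalized counts in XX gonads, with 15.8 and 7.98 against 16.6 and 2.06 in XY gonads. Both XX wild type libraries were high for these genes, replicate 1 most, and leaving out replicate 1 or 2 gave a median of 1.55 or 4.91. Albumin (Alb) was not among the genes tested. Steroidogenic and adrenal cortex genes had a median of 0.27 over 10 of 15 measured, from -0.37 to 1.00 with each library left out. Of the 10, 2 had an unadjusted p under 0.05, against 8.5% of all genes. These were Nr5a1 and the electron carrier Fdx1 (0.57).

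In lists of other tissues 6.25 to 13.3% of members had a limma unadjusted interaction p under 0.05, against 8.5% of all genes. The mesonephros and duct list had -0.15, with Wnt11 (0.78) positive and Sim1 (-1.28) negative at an unadjusted p under 0.05 among 15 genes. Sim1, a nephric transcription factor, had 77.6 and 68.8 (wild type) against 129 and 225 (null) in XX, with an XY effect of -0.08. The coelomic epithelium list had 0.33 (-0.00517 to 0.59 with each library left out), with 1 of 10 genes at an unadjusted p under 0.05, Upk1b (1.88), which met the terms of the opposite genes. Interstitial progenitors had 0.01, with Osr1 (0.85) first and Nr2f1 at 0.75 in XX and 0.36 in XY, and neural crest and neurons had 0.09, with Hand2 (0.52) the only gene of 15 at an unadjusted p under 0.05.

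**Figure D5:**
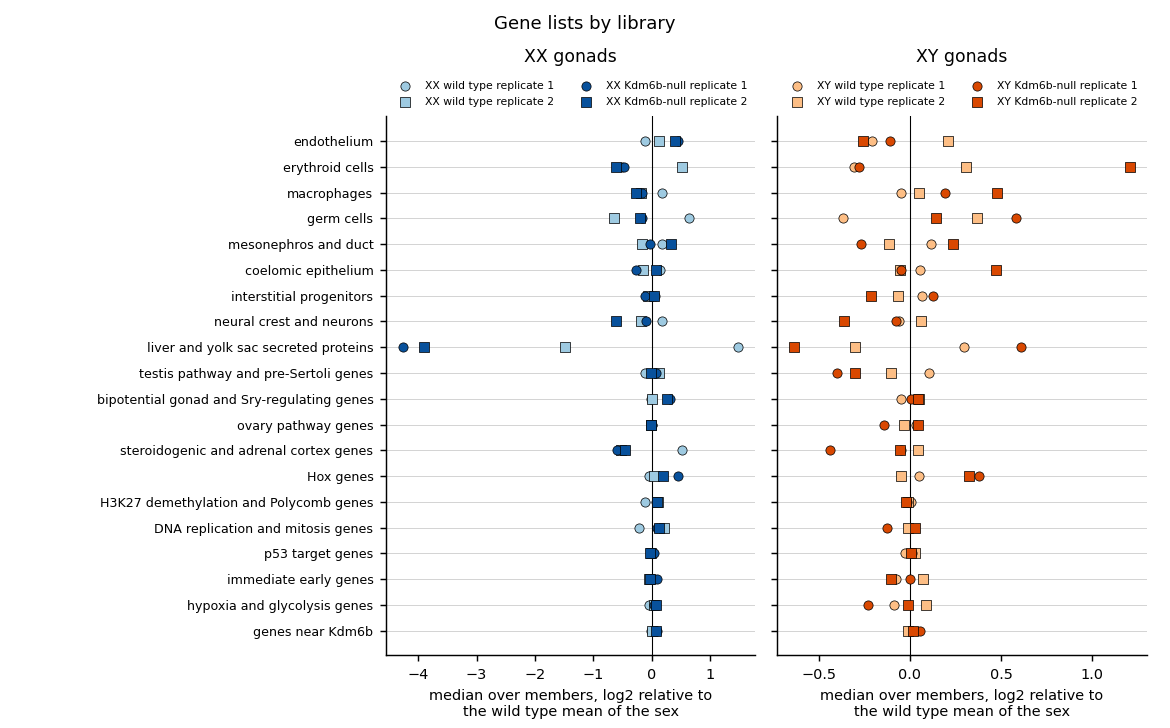
For each gene list the points give the median over its measured members in 1 library, as log2 relative to the wild type mean of the same sex, in XX (left) and XY (right, on a narrower scale). Endothelial genes are at 0.45 and 0.40 in the XX Kdm6b-null libraries and at -0.11 and -0.26 in the XY Kdm6b-null ones, and erythroid genes are at -0.28 and 1.20 in XY Kdm6b-null.

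Hox genes, which pattern the body axis and are classical targets of Polycomb silencing, had a median effect of 0.41 in XY, where 34 of 36 were positive, and of 0.21 in XX, where 26 were positive. Their median interaction was 0.10, with 21 positive and 15 negative of 36, and leaving out XX wild type replicate 2 or 1 gave -0.16 or 0.24. Without replicate 1, 8 were positive and 4 negative at an unadjusted p under 0.05. With all libraries 3 of 36 passed it (8.33%, against 8.5% of all genes), all negative: Hoxc9 (1.16 in XX, 0.45 in XY), Hoxc6 (1.02 and 0.12) and Hoxb9 (0.72 and 0.20). Polycomb and H3K27 genes had a median of -0.13, and 12.9% of 31 had an unadjusted p under 0.05, against 8.5% of all genes. Of these, Phc2 (-0.43), Asxl1 (-0.44) and Kdm2b (-0.34) were negative and Ring1 (0.50) positive. Without XX wild type replicate 2 the list median was -0.21. Phc2, a subunit of Polycomb repressive complex 1, had 2837 and 3202 (wild type) against 4277 and 4433 (null) normalized counts in XX gonads, with 4072 and 3833 against 4052 and 4437 in XY gonads, lowest in XX wild type. Ring1, another subunit, had 482 and 473 (wild type) against 482 and 393 (null) normalized counts in XX gonads, with 348 and 352 against 471 and 431 in XY gonads, and was higher in XY Kdm6b-null without overlap.

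Replication and mitosis genes had a median of -0.17 with 0 of 24 at an unadjusted p under 0.05, against 8.5% of all genes. Plk1 (-0.64) and Cdc20 (-0.52) were lowest in XX wild type replicate 1, and leaving that library out gave a median of 0.079, against -0.34 when XX wild type replicate 2 was left out. Without replicate 1, 15 of 24 were positive and 9 negative, and without replicate 2, 0 were positive and 24 negative. Targets of p53 had a median of 0.03 with 2 of 18 at an unadjusted p under 0.05 (11.1%), Sesn2 (-0.69) and Zmat3 (-0.40). Immediate early genes had -0.16 and 0 of 14, and Fos, at 22.8 and 30.9 (wild type) against 59.5 and 50.4 (null) in XY, was one-sided (0.96, limma unadjusted p = 0.101). Hypoxia and glycolysis genes had -0.18, with 3 of 19 at an unadjusted p under 0.05 (15.8%, against 8.5% of all genes). These were the enzymes Pfkl (-0.66), Pgam1 (-0.50) and Hk1 (-0.35), all negative. Of 128 genes within 1 Mb of Kdm6b, 79 were measured, with a median of -0.07, or -0.10 without XX wild type replicate 2. Of these, 6 had an unadjusted p under 0.05 (7.59%, against 8.5% of all genes). Among them Fxr2, an RNA-binding relative of FMR1, had 2140.2 and 2289 (wild type) against 3068 and 3053 (null) normalized counts in XX gonads, with 2816 and 3042 against 2828 and 2911 in XY gonads (-0.50), lowest in XX wild type.

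The 34 genes from the difference of the authors' estimates repeat several of these names. Among the smallest adjusted p-values (normal approximation) were those of Glo1 (3.85e-21), Rps18 (2.50e-11) and Dnah8 (7.45e-07). Endothelial list members among the 34 were Plvap (0.00513), Cdh5 (0.0152) and Tie1 (0.0475). In the authors' deposited tables Plvap had log2 fold changes of 0.92 in XX and -0.14 in XY. Hs6st1, a heparan sulfate sulfotransferase, was in both sets of leading genes: it had 1323 and 1349 (wild type) against 1836 and 1922 (null) normalized counts in XX gonads, with 2444 and 2659.8 against 1834 and 2001 in XY gonads, and by limma an interaction of -0.90 (SE 0.12, adjusted p = 0.313). Its XX Kdm6b-null and XY Kdm6b-null libraries lay close together, and its wild type libraries were apart between the sexes, on separately set scales. Further leading negative genes by limma, each at adjusted p = 0.569, were Cxxc5, a CpG-binding regulator of WNT signalling (-0.83), Dysf, the membrane repair protein dysferlin (-1.06), Bcar1, an adhesion scaffold (-0.71), Cachd1 (-0.66) and Sipa1l2 (-0.58). Cxxc5 was also one of the 9 genes called within XX, where it had 936 and 1009.5 (wild type) against 1827 and 2032 (null) normalized counts in XX gonads, with 1567 and 1787 against 1755 and 1993 in XY gonads.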

How the data were processed

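Polyadenylated RNA was sequenced with 100-base paired reads, per the labels' protocols. Tools named in the submitters' processing notes are STAR 2.7.11, cutadapt 4.9, DESeq2 2.11.40.8 and featureCounts 2.0.8, with build GRCm38, and the sources used here give no strand setting, annotation release or filter. Per gene the authors deposited a signal, the count divided by 1 size factor per library, with XX and XY in separate tables. Further tables deposited by the authors hold log2 fold changes, standard errors and p-values of their own comparisons, and a Wald score left unused. All nonzero values of a library (100%) were multiples of 1 step within 1e-06, and the step was taken as 1 count for the depths alone. Because the steps lie so close to 1, no model of counts was run.

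Limma 3.58.1 in R 4.3.3 was fitted to log2(normalized count + 1) in all 8 libraries with a variance trend and no covariate, and since each effect is taken inside its own table, a scale factor between tables drops out. Fold changes on this scale understate those of low genes. Benjamini-Hochberg adjustment ran over the 16567 fitted genes, with the 609 off the autosomes not reported. The tests were two-sided and the fitting code was tested on simulated data. Symbols and coordinates are the deposited ones. Replicate numbers are those in the titles, and 0 value columns lacked a sample.

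The genes, classes and 19 lists (367 genes) were chosen with earlier results of these data known. Named were 11 gonad genes, 10 genes in each direction by p (separated), 6 opposite genes in each direction with the largest smaller effect, 5 one-sided genes of each kind, each reaching 50 in some group mean, with predicted genes passed over, and up to 4 members of each list by p. Some genes that meet these rules are not reported here. Alternatives were other pseudocounts, filters, normalizations, variance models, thresholds, the replicate block, the authors' estimates and leaving out each library; counts of list members with a library left out were added after seeing the data.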

Additional observations from a re-analysis of the deposited data

Results flagged for a closer look

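In 31 of the 129 genes named by the rule both null libraries lay on one side of both wild type libraries in XX and on the opposite side in XY. By limma the interaction of none passed after adjustment (adjusted p = 0.224 to 0.627). Over all 15958 genes tested, 819 lay on opposite sides in this way. Of the 31, 15 were opposite genes, selected for such effects. Their interaction was 2.68 in Glo1, 4.42 in Hbb-bt, 3.67 in Dnah8, 1.86 in Rps18, 2.44 in Slfn14, 7.30 in Ctse, 2.66 in Fgf1 and 1.88 in Upk1b. It was -2.64 in Pnlip, -1.97 in Hist1h4i, -1.95 in Cbln1, -2.30 in Cst9, -3.73 in Aox4, -1.62 in Rxfp3 and -1.99 in Trim55. The other 16 had an effect under 0.5 in at least 1 sex. Apart from Gata4, they were themselves named for a small interaction p or a one-sided effect, so their pattern is a description. Among them the interaction was 0.84 in Mrps10, 1.39 in Socs2, 0.88 in Acap1, 0.79 in C1qb, 0.99 in Tyrobp and 0.73 in Tdrkh. It was -0.90 in Hs6st1, -1.06 in Dysf, -0.83 in Sox18, -0.85 in Cyp26b1, -0.66 in Erg, -0.98 in Tek, -1.81 in Draxin, -1.01 in Gata4, -0.35 in Hk1 and -1.05 in Lhx1. With each library left out in turn Glo1 ran from 2.40 to 2.96, Dnah8 from 3.16 to 4.17, Hbb-bt from 3.78 to 5.06, Ctse from 5.47 to 9.13 and Aox4 from -5.56 to -1.89.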

How the results depend on the processing

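Of 2293 interaction values of the 129 named genes under the alternatives, 2260 kept their direction and their side of the threshold, 22 passed it and 11 changed sign. The causes were not tested. No gene passed the threshold with all libraries by limma, and most named genes were picked by p or effect, so keeping both was largely fixed beforehand. Changed signs were Amh at 0.20 without XX wild type replicate 1, 0.18 without XX Kdm6b-null replicate 1, 0.02 without XY wild type replicate 2, then 0.13 without XY Kdm6b-null replicate 2; Fst at -0.09, -0.31, -0.09 and -0.29 without XX wild type replicate 1, XX Kdm6b-null replicate 1, XY wild type replicate 2 and XY Kdm6b-null replicate 1; Clca1 at 1.59 and 1.36 when XY wild type replicate 1 or XY Kdm6b-null replicate 2 was left out; and Isl1 at -0.0096 without XY Kdm6b-null replicate 1. The whole ranges were -0.50 to 0.20 for Amh, -0.31 to 0.57 for Fst, -6.30 to 1.59 for Clca1 and -0.0096 to 1.18 for Isl1.

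Classes are given in the order opposite higher in XY, opposite lower in XY, one-sided higher in XY, lower in XY, higher in XX, lower in XX, alike higher and alike lower. A minimum mean of 50 tested fewer genes and gave 17, 11, 4, 9, 20, 47, 17 and 80, with 259 positive unadjusted calls and 907 negative (22.2% positive) and a testis list median of -0.25. No filter gave 291, 125, 156, 187, 149, 393, 164 and 557, with 759 positive and 1121 negative calls (40.4%). Minimum effects of 1 for opposite and alike and 1.5 for one-sided genes gave 10, 5, 8, 7, 9, 39, 8 and 38. A limit of 0.1 in the other sex left 13, 18, 14 and 53 one-sided genes. A pseudocount of 5 gave 48 opposite genes higher in XY and 14 and 23 one-sided genes higher and lower in XY. Quantile normalization gave 37 opposite genes lower in XY and medians of -0.19, -0.0361 and -0.0312 for the bipotential, Polycomb and near-Kdm6b lists. Without a variance trend 527 positive and 649 negative calls were made (44.8%). The authors' estimates gave 34 adjusted calls, 248 positive unadjusted calls, and medians of 4.599 for liver and yolk sac and -0.0509 near Kdm6b.

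With each library left out in turn, adjusted calls ran from 0 to 37, positive unadjusted calls from 238 to 1005 and negative ones from 363 to 2355, the highest without XX wild type replicate 2; 338 of 1356 were called in every such fit. Classes ran from 90 to 135, 31 to 77, 16 to 75, 27 to 92, 27 to 139, 85 to 330, 56 to 111 and 195 to 359; a group of 1 library overlaps less easily. Medians ran from -0.82 to -0.58 for endothelium, 0.19 to 1.58 for erythroid cells, 0.24 to 0.69 for macrophages, -0.20 to 1.31 for germ cells, 1.55 to 4.91 for liver and yolk sac, -0.37 to 1.00 for steroidogenic genes, -0.67 to -0.18 for testis genes, -0.40 to -0.25 for bipotential genes, -0.18 to 0.00737 for ovary genes, -0.16 to 0.24 for Hox genes, -0.21 to -0.064 for Polycomb genes, -0.34 to 0.079 for replication, -0.050 to 0.048 for p53 targets, -0.20 to -0.076 for immediate early genes, -0.34 to -0.025 for hypoxia, -0.37 to 0.086 for mesonephros, -0.00517 to 0.59 for coelomic epithelium, -0.23 to 0.21 for interstitial progenitors, -0.063 to 0.44 for neurons and -0.10 to -0.040 near Kdm6b.

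Same-numbered libraries share only a number: their deviations correlated at -0.0407 in XX and 0.263 in XY, and the replicate block within each sex gave 0 adjusted calls, 457 positive and 808 negative unadjusted ones.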

Other observations

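Gm13394 and Clca1 were nearly off in single libraries, whatever their group. Gm13394, a predicted gene on chromosome 2, had 12.1 normalized counts in XX wild type replicate 2 and 16.5 in XY Kdm6b-null replicate 2, and 1485 to 1975 in the other 6 libraries. It therefore counts among the opposite genes with an interaction of -7.31 (SE 3.38), at a limma unadjusted p of 0.064. Clca1, a secreted regulator of chloride channels, had 1.00 in XY wild type replicate 2 and 1.03 in XY Kdm6b-null replicate 2, and 26.2 and 227 in XX wild type. Hba-a2, by contrast, was highest in both XX wild type libraries, with 207 and 205 normalized counts, and had 0 to 90.9 elsewhere. Gm13394 and Hba-a2 were named after their values were seen.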
